A study of Mus musculus with 12 samples.

Results

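Gene expression was compared between MEFs in which Birc6, the gene encoding BRUCE, had been knocked down and control MEFs, both grown in fully supplemented medium (FM). The members of this comparison are the 3 shBruce and the 3 shRenilla libraries from FM, 6 of the 12 RNA-Seq libraries in the series, and every gene symbol of the count table entered the comparison. The other 6 libraries came from the same lines after 2 h in medium without serum and amino acids (Starv) and served only as a separate set of libraries in which to look up the genes found in FM. MEFs are mouse embryonic fibroblasts, connective tissue cells kept in culture. shRenilla MEFs express an shRNA against Renilla luciferase, which mouse cells do not have, and shBruce MEFs express an shRNA against Birc6, in the study shBruce#1. The sample titles name no other agent in FM. According to the paper's methods, stable lines were made by retroviral infection with polybrene and selected with G418 or puromycin. Each shRNA was present in a single stable line, so other differences between the lines cannot be told apart from the knockdown, and nothing in the labels says whether the replicates were separate cultures, so that p-values measure only the spread between these libraries.

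BRUCE is a giant IAP (inhibitor of apoptosis) protein that carries both a BIR domain and a ubiquitin-conjugating domain. It restrains apoptosis by ubiquitinating caspases and the IAP antagonist SMAC (encoded by Diablo), and it also takes part in the fusion of autophagosomes with lysosomes, the step at which enclosed cargo meets the lysosomal enzymes. An shRNA is processed into a short guide RNA that leads the silencing complex to a matching transcript, and the bases near its 5′ end, the seed, can also pair with partly matching sites in other transcripts.

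The guide and its target are shown because the knockdown in this comparison was made with this single hairpin. The guide is written as DNA, with the seed (bases 2 to 8) in capitals in the guide and the bases that pair with it in capitals in the target.
shBruce#1 guide: tTTTAAACcatctttgagctgt
Birc6 target: acagctcaaagatgGTTTAAAa
The target lies on the plus strand at chr17:74548787-74548808 of GRCm38, in the coding sequence in exon 3 of the 73 exons of Birc6 (chr17:74528295-74703356). Among the annotated transcripts, 0 of any other gene held the full 22-base target.

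Birc6 was strongly reduced in the knockdown line. Its normalized count was 4900.0, 3427 and 5298 in the 3 shRenilla libraries and 1264, 1324 and 1455 in the 3 shBruce libraries. The highest shBruce library thus lay well below the lowest shRenilla library. The mean fell from 4542 ± 985 to 1347 ± 97.8 (SD, n = 3), which is 29.7% of the control level and a log2 fold change of -1.75 ± 0.15 (SE; adjusted p = 0.00314, edgeR quasi-likelihood test, Benjamini-Hochberg adjustment). Because the libraries hold RNA of whole cultures, fewer cells that express a gene and less RNA per cell cannot be told apart. An exact permutation test for this gene gave p = 0.1, the smallest two-sided value that 3 libraries against 3 allow. An antisense transcript (Gm26749) overlaps Birc6 exons, and the strand setting of the counting was not given in the sources used here.

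Total counts were 15822281 to 18510540 in the shRenilla and 14283861 to 14802390 in the shBruce libraries, so the control line was sequenced more deeply in every replicate. Replicates of a line differed by more than counting error (chi-square per degree of freedom of 4.03 to 28.7). shBruce FM replicate 3 stood apart, with a correlation of log-CPM values of 0.977 and 0.978 with the other shBruce libraries, against 0.993 to 0.996 between all other replicates of a line. It lay at 40.0 on the first principal component (51.1% of the variance), where the other 5 libraries lay between -20.2 and 5.96. Of 14 fibroblast markers tested, 3 passed the test upward (S100a4, Col1a1 and Fbln1) and 1 downward (Fn1). The normalized counts of all 17 listed fibroblast markers summed to 181520 to 186000 in shRenilla and 193520 to 229710 in shBruce libraries. This sum and the marker sums that follow include listed genes that were not tested. Epithelial markers summed to 671 to 938, leukocyte markers to 201 to 345, endothelial markers to 173 to 224 and skeletal muscle markers to 7.26 to 17.8 over the 6 libraries, and the myogenic factors Myod1, Myog and Myf5 had no count in any of them. Adipocyte markers summed to 133 to 174 and cartilage and bone markers to 1756 to 2108. Neural and glial markers summed to 7769 to 8179 in shRenilla and 8414 to 9140 in shBruce libraries, with 1 of 6 tested markers higher (Tubb3, 0.59 ± 0.14, adjusted p = 0.0480) and 0 lower. Smooth muscle markers summed to 8099 to 9014 in shRenilla and to 3370, 6683 and 7137 in shBruce libraries, the lowest being replicate 3, with 0 of 3 tested markers past the level. The part of these marker genes in the differences was not tested.

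In total, 597 of the 11680 genes tested (5.11%) differed between the lines in FM at an adjusted p under 0.05, 221 of them (1.89%) higher and 376 (3.22%) lower in shBruce MEFs. Replicates of the lines did not overlap for any of the 597, a pattern that 34.2% of all genes tested showed. The differences were mostly small, with a median log2 fold change of 0.50 among the higher and -0.63 among the lower genes, and 50 (0.428%) reached 2-fold, 9 higher and 41 lower. Most stood close to the threshold, since 553 had an adjusted p above 0.04. Only 4 genes had an adjusted p under 0.02, and all 4 were lower in the knockdown line: Birc6, Lama4, Postn and Cxcl12.

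**Figure D1:**
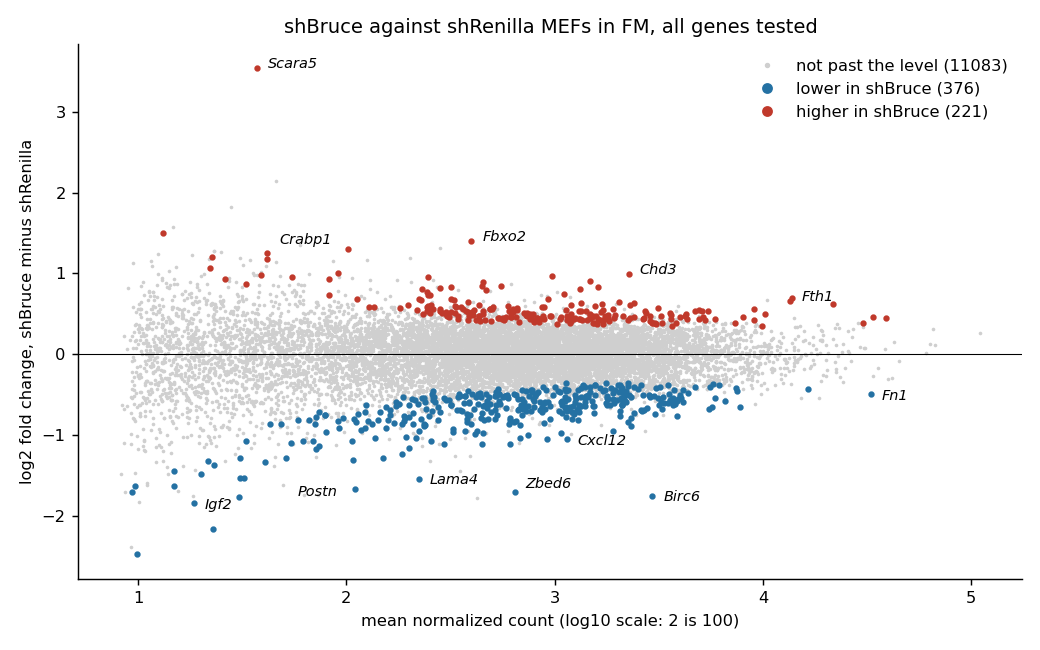
Each point is one of the 11680 genes tested, with the mean normalized count on a log10 scale on the x axis and the log2 fold change (shBruce minus shRenilla, FM) on the y axis. The 376 lower genes (blue) include Birc6, Postn and Lama4 below -1.5, and the 221 higher genes (red) lie mostly under 1, with Scara5 highest at 3.54.

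The size of this set depended on which libraries were fitted. Without shBruce FM replicate 3 it grew to 2351 genes (19.9% of those tested; 958 higher and 1393 lower), which held all 597, and without shRenilla FM replicate 2 to 1714 (14.6%). Without shBruce FM replicate 2, shRenilla FM replicate 1 or shRenilla FM replicate 3, only Birc6 and Lama4 passed (0.0169%, 0.017% and 0.017%). Without shBruce FM replicate 1, 11 genes (0.0929%) passed, namely Birc6, Lama4, Cxcl12, Postn, Fam198b, Chd3, Col6a2, Crabp1, Fbxo2, Gchfr and Wnt7b. With limma-voom, the method named in the study, 55 genes (0.471%) passed, all of them among the 597. One fit of all 12 libraries passed 0 genes in FM (0.0%), Birc6 included. The share of genes tested that passed was 14.1% with DESeq2, 33.0% with limma-voom and sample quality weights, 12.4% with a replicate block and 7.29% with no filter on low counts. It was 5.09% with DESeq2's size factors, 5.55% with upper-quartile normalization and 6.74% with at least 10 counts in every library.

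Differences followed transcript length. In 5 equal bins from the shortest to the longest transcripts, the median log2 fold change went from 0.22 through 0.09, 0.01 and -0.09 to -0.24, and the shortest bin held 140 higher and 5 lower genes where the longest held 8 and 242. The median transcript length was 6054 bases among the lower, 1488 among the higher and 3161 among all genes tested, and the median GC content was 44.3%, 55.9% and 50.1%. The libraries of a line did not move alike in this respect: in the longest bin, the median deviation from the mean of the 6 libraries was 0.15 and 0.21 in shRenilla replicates 1 and 3 but -0.01 in replicate 2, and between -0.14 and -0.09 in the shBruce libraries. After the trend of each library against length and GC content was removed, 44 genes (0.377%) passed, 17 higher and 27 lower, of which 35 were among the 597. Leaving out shBruce replicate 3 as well gave 16.3%, and adding a replicate block gave 0.00856%, which is Birc6 alone. The bin medians then lay between -0.03 and 0.01.

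**Figure D2:**
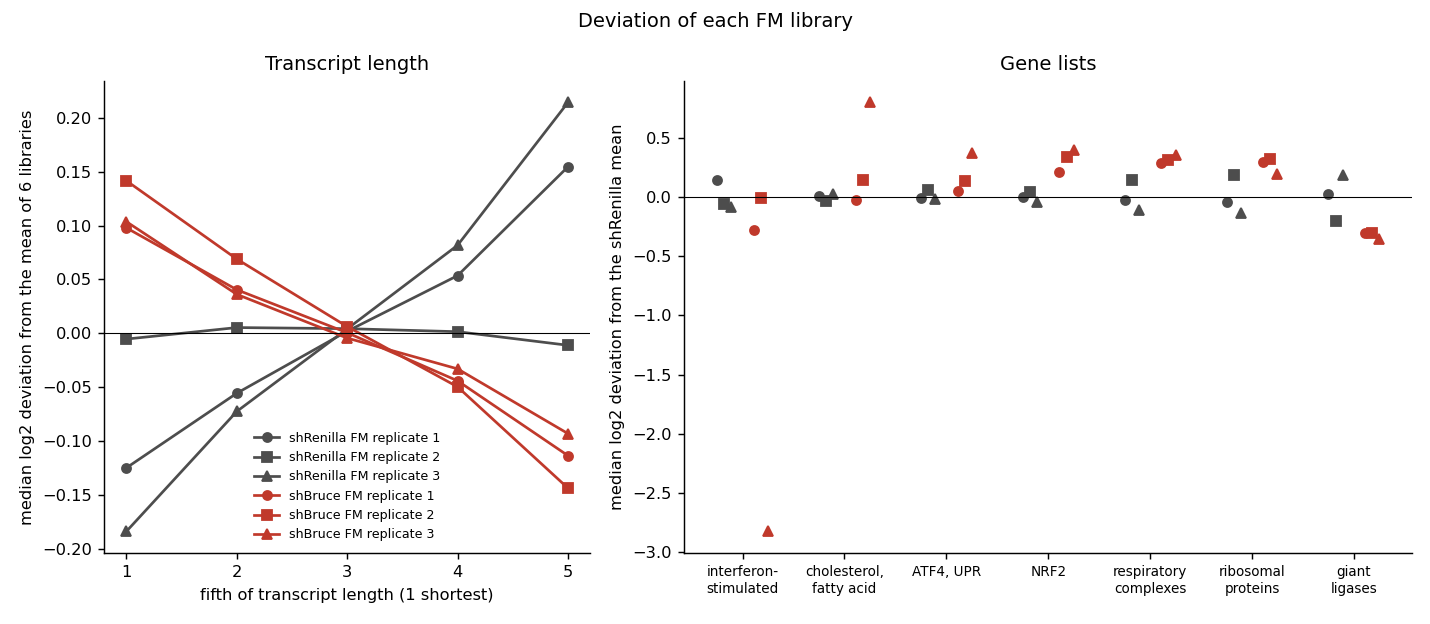
Left, median log2 deviation of each FM library from the mean of the 6 libraries (y axis) in 5 bins of transcript length (x axis). Right, median log2 deviation of each library from the shRenilla mean over the tested members of 7 gene lists. The 3 shBruce libraries (red) slope down with length and shRenilla replicate 2 (grey square) is flat, and shBruce replicate 3 (red triangle) lies at -2.82 for the interferon-stimulated genes.

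The 35 genes that passed in both fits were 12 higher and 23 lower ones. Alongside Birc6, Lama4, Postn and Cxcl12, the lower ones included Irs2, an adaptor of the insulin receptor (log2 fold change -1.07, and -1.06 with the trends removed), Nid2, Col8a1, Egr1, Ifit2 and Txnip. The immediate-early transcription factor Egr1 gave normalized counts of 1386, 1572 and 1571 in shRenilla and 986, 1020.2 and 1008 in shBruce libraries. The 2 lines were well separated and the shBruce libraries lay close together, with a log2 fold change of -0.59 ± 0.09 (SE, adjusted p = 0.0283) and of -0.65 with the trends removed. Irs2 and Egr1 were named after their values had been seen.

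Besides Birc6 itself, the matrix genes Lama4 and Postn and the chemokine gene Cxcl12 had the smallest adjusted p-values, that of Lama4 being equal to that of Birc6. Lama4, the α4 chain of the laminins of vessel and mesenchymal basement membranes, had normalized counts of 312, 316 and 370.5 in shRenilla and of 111, 122 and 110.0 in shBruce libraries. The lines did not overlap, and Lama4 was reduced 2.91-fold (log2 fold change -1.54 ± 0.13, SE, adjusted p = 0.00314). Postn encodes periostin, a matricellular protein of fibroblasts, and gave 184, 157 and 164 in shRenilla against 48.9, 46.0 and 63.3 in shBruce libraries. It was reduced 3.18-fold (-1.67 ± 0.17, adjusted p = 0.00776). Cxcl12, the chemokine that recruits CXCR4-bearing cells, gave 1506, 1573 and 1546 against 874, 712 and 640.3, a 2.08-fold reduction with no overlap (-1.06 ± 0.12, adjusted p = 0.0133). These genes kept most of their difference with the trends removed (-1.39, -1.54 and -0.93) and without shBruce replicate 3 (-1.51, -1.82 and -0.96). Birc6, with a transcript of 15768 bases, went from -1.75 to -1.41 with the trends removed (adjusted p = 0.00263), and stood at -1.81 without shBruce replicate 3.

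**Figure D3:**
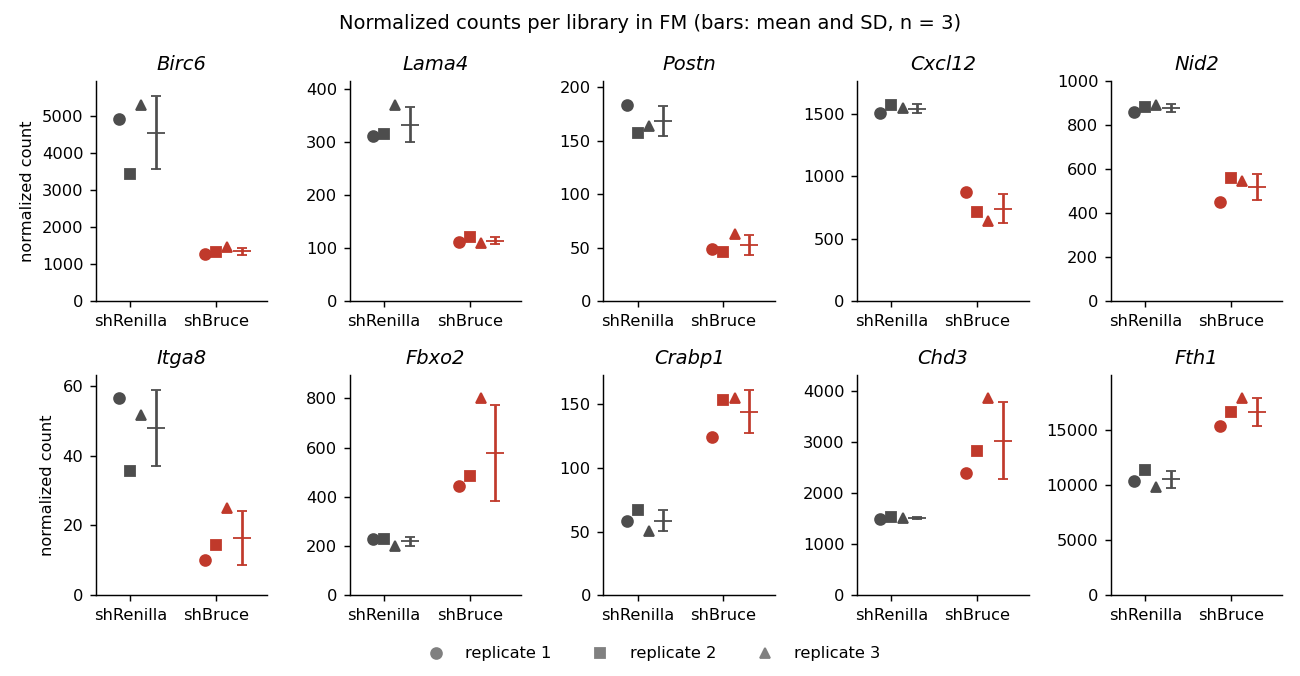
Normalized counts (y axis, from 0) of 10 genes in the 3 shRenilla (grey) and 3 shBruce (red) FM libraries, with a marker for each replicate and the mean with its SD at the side. Replicates of the lines do not overlap for any of the 10, and shBruce replicate 3 (triangle) is the highest library for Fbxo2 (800.1) and Chd3 (3860.3).

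Of 17 tested laminin and basement membrane genes, 3 were lower (17.6%) and 0 higher, beside 3.22% and 1.89% of all genes tested. The same shares stand beside the counts of the lists below. In the longest bin of transcript length, 242 of 2319 genes were lower. The list median log2 fold change was -0.22 beside 0.01 over all genes tested. Besides Lama4 the lower members were the nidogens Nid2 and Nid1, which link laminin to collagen IV networks. Nid2 gave 859, 884 and 894 in shRenilla and 450.1, 560.0 and 549 in shBruce libraries, with a wide gap between the lines (-0.76 ± 0.11, adjusted p = 0.0283). Nid1 fell by 0.73 on the log2 scale (adjusted p = 0.0345). The other laminin chains changed less: Lamc1 had a log2 fold change of -0.37 (adjusted p = 0.0633), Lamb1 of -0.22 (adjusted p = 0.186) and Lama5 of 0.09 (adjusted p = 0.534), values looked up after Lama4 had been seen. With the trends removed the list median was -0.12 and 2 members stayed lower.

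Integrins are the receptors through which fibroblasts hold on to matrix. Of 17 tested, 4 were lower (23.5%, beside 3.22% of all genes tested) and 0 higher. The α8 chain gene Itga8 gave 56.4, 35.5 and 51.6 in shRenilla and 10.0, 14.2 and 24.9 in shBruce libraries, the gap between the lines being small compared with the spread within each (-1.53 ± 0.33, adjusted p = 0.0478). Itga1 (-1.10 ± 0.27), Itgav (-0.68 ± 0.14) and the common β1 chain gene Itgb1 (-0.43 ± 0.10) were lower as well. The list median was -0.23 and stayed at -0.27 with the trends removed, although 0 members then passed, and it was -0.13 without shBruce replicate 3.

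Collagens moved in both directions, with 2 higher (9.09%) and 1 lower gene (4.55%) among 22 tested and a median of 0.05. Col6a2 and Col1a1, which encode chains of collagens VI and I, rose by 0.63 ± 0.14 and 0.45 ± 0.11 on the log2 scale (adjusted p = 0.0478 and 0.0490), and Col8a1 fell by 0.79 ± 0.11 (adjusted p = 0.0283). Col1a1 gave 27096, 29606 and 28622 in shRenilla and 33240.0, 39911 and 43846 in shBruce libraries. Of 46 matrix glycoproteins and proteoglycans, the fibulin gene Fbln1 and the glypican gene Gpc1 rose, Postn and the fibronectin gene Fn1 fell, and the list median was -0.03. Of 44 proteases, inhibitors and crosslinkers, Pcolce, which enhances procollagen processing, rose by 0.42 on the log2 scale. The sheddase gene Adam9 and the lysyl oxidase gene Loxl2 fell by 0.51 and 0.41. With the trends removed, Col8a1 and Postn were the only genes of these lists to pass.

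Cell-cell adhesion genes included 3 lower (14.3%) and 0 higher members among 21 tested. The lower ones were Pcdh17, Fat1 and Mcam, with log2 fold changes of -0.81, -0.66 and -0.63. The list median was -0.24 and moved to -0.03 with the trends removed, when 0 members passed.

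Secreted signals and their receptors held differences in both directions. Of 23 chemokine and cytokine genes, Cxcl12 fell and Ccl7 rose (0.56 ± 0.10, adjusted p = 0.0470), with a median of 0.02. The atypical CXCL12 receptor gene Ackr3, named after its value had been seen, had a log2 fold change of -0.01 (adjusted p = 0.981). Of 30 growth factor genes, the PDGF A chain gene Pdgfa rose by 0.68 ± 0.12, with 238, 271 and 226 in shRenilla and 401, 414 and 365 in shBruce libraries. It did so also with the trends removed (0.55, adjusted p = 0.0484). Igf2 and Gdnf fell by 1.85 ± 0.41 and 0.36 ± 0.09. With the trends removed Igf2, Gdnf and Ccl7 did not pass (adjusted p = 0.0764, 0.0610 and 0.0610). The Igf2 value rested on low counts of 31.6, 34.6 and 20.6 against 13.3, 6.58 and 4.15, and exons of the gene Gm49394 overlap its own on the same strand.

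Of 28 receptor tyrosine kinase genes, 2 were lower (7.14%, beside 3.22% of all genes tested) and 0 higher. The ephrin receptor gene Epha3 and Fgfr2 were lower by 1.53 and 0.61 on the log2 scale. With the trends removed 0 of the 28 passed. Axon guidance genes also guide the migration of mesenchymal cells. Of 40 tested, 5 were lower (12.5%) and 0 higher, with a median of -0.15. The lower ones were Slit3, Sema5a, Robo2, Slit2 and Unc5c. Sema5a gave 823, 643 and 882 in shRenilla and 440.1, 482 and 364 in shBruce libraries (-0.87 ± 0.15, adjusted p = 0.0427). The median transcript length of the axon guidance list was 5680 bases, and 0 of the 40 passed with the trends removed.

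In the Wnt and Notch list, 5 of 45 genes (11.1%) were lower (Hey2, Jag1, Apc, Fzd6 and Fzd5) and 1 (2.22%), Wnt7b, was higher. Wnt7b encodes a Wnt ligand and gave 1170, 1144 and 1171 in shRenilla and 1744, 2203 and 2270.5 in shBruce libraries. No shBruce library came near the controls (0.84 ± 0.11, adjusted p = 0.0283), and Wnt7b passed with the trends removed too (0.67, adjusted p = 0.0411). Hey2, a Notch effector, fell by 0.82 and the ligand gene Jag1 by 0.63. With the trends removed 0 genes of this list were lower past the level. In the TGF-β and BMP list, 2 of 37 genes were lower (5.41%, beside 3.22% of all genes tested) and 0 higher. They were the SMAD corepressor gene Skil (-0.63 ± 0.13) and the activin antagonist gene Fst (-0.53 ± 0.12). With the trends removed 0 of the 37 passed.

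Among the 10 higher genes with the largest changes, 9 had their highest value in shBruce replicate 3, Fam213a being the exception. Scara5, a ferritin receptor gene, gave 6.83, 5.92 and 4.69 in shRenilla and 20.005, 24.1 and 162 in shBruce libraries. The last library alone moved its log2 fold change from 1.90 to 3.54. Fbxo2, the substrate receptor of a ubiquitin ligase for glycoproteins, gave 229.8, 227 and 199 against 445, 487 and 800.1, and was raised 2.64-fold (1.40 ± 0.21, adjusted p = 0.0283). Without replicate 3 the value was 1.09. Crabp1, a retinoic acid binding protein gene, was more even, with 58.1, 67.1 and 50.7 against 124, 153 and 155 (1.30 ± 0.17, adjusted p = 0.0283). Chd3, a chromatin remodeller gene of the NuRD complex, gave 1504, 1532 and 1518 against 2396, 2828 and 3860.3 (1.00 ± 0.15, adjusted p = 0.0288). The others were Fam213a (1.25), Krt16 (1.17), Chst1 (1.01), Ocel1 (0.98), Tubb2a (0.96) and Pthlh (0.96), and exons of Ocel1 overlap Nr2f6 on the opposite strand.

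The 10 lower genes with the largest changes comprised Birc6, Lama4, Postn and 7 others. These were Zbed6 (-1.70), Zfp369 (-1.34), Tcn2 (-1.31), Uhmk1 (-1.28), Capn6 (-1.28), Pag1 (-1.24) and Sepp1 (-1.17). Zbed6, a repressor of Igf2 derived from a transposon, gave 1149, 512.5 and 1282 in shRenilla and 279, 310.1 and 317 in shBruce libraries, so that shRenilla replicate 2 lay between the other controls and the knockdown line. Its exon overlaps Gm38394 on the same strand. Tcn2 and Sepp1 encode the plasma carriers transcobalamin 2 and selenoprotein P. With the trends removed, Tcn2, Pag1 and Sepp1 passed again, and Zbed6, Zfp369, Uhmk1 and Capn6 had adjusted p-values of 0.0610 to 0.0916.

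The pathways in which BRUCE acts were looked at list by list, beside the 5.11% of all genes tested that passed. Of 6 tested IAP genes only Birc6 was past the level. Xiap, a direct caspase inhibitor, gave 1788, 1149 and 1750.3 in shRenilla and 1034, 907 and 1080.3 in shBruce libraries. The lines did not overlap, but the fit placed the difference just outside the level (-0.63 ± 0.16, adjusted p = 0.0506) and it was -0.20 with the trends removed. Birc2, Birc3 and Birc5 had log2 fold changes of -0.29, -0.32 and 0.12. Of 30 apoptosis regulators and caspases, Apaf1, the scaffold of the apoptosome, was lower (-0.53 ± 0.13, adjusted p = 0.0490), 0 were higher and the list median was 0.07. With the trends removed Apaf1 stood at -0.28 (adjusted p = 0.131), and 0 of the 30 passed. Casp9 and Diablo had log2 fold changes of 0.08 and 0.23 (adjusted p = 0.713 and 0.147).

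Of 22 genes for autophagosome-lysosome fusion, 1 was higher and 1 lower, and the list median was -0.02. Vamp8, the SNARE on the lysosomal side, gave 724, 753 and 642.5 in shRenilla and 890.2, 1075 and 1217 in shBruce libraries (0.59 ± 0.13, adjusted p = 0.0478). Lamp2, a major protein of the lysosomal membrane, gave 7737, 6083 and 7083 against 5025, 4388 and 4901 (-0.55 ± 0.11, adjusted p = 0.0478). Both were separated between the lines, and neither passed with the trends removed (adjusted p = 0.0980 and 0.0681). Stx17, the autophagosomal SNARE, had a log2 fold change of -0.37 ± 0.12 (adjusted p = 0.0831), and its libraries did not overlap either. The ATG8 genes gave no call, with log2 fold changes of -0.08 for Map1lc3b, 0.22 for Gabarap and 0.21 for Gabarapl1, and the receptor gene Sqstm1, which encodes p62, gave 0.27 (adjusted p = 0.151). These last genes, the other IAP genes, Casp9 and Diablo were looked up by name.

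Of 40 genes of the autophagy machinery and its receptors, only Rb1cc1, which encodes FIP200 of the ULK1 complex, passed (-0.55 ± 0.13, adjusted p = 0.0485). With the trends removed its value was -0.15. Lysosomal hydrolases and membrane proteins held 3 lower and 0 higher genes among 51, the protease genes Ctsc and Tpp1 and the sulfatase gene Arsb (-0.86, -0.45 and -0.65). Their list median was -0.13 and changed little with the trends removed (-0.14) or without shBruce replicate 3 (-0.14). Without that replicate 12 members were lower and 1 higher, beside 1393 lower and 958 higher of 11834 genes tested. With the trends removed Ctsc, Arsb and Tpp1 did not pass (adjusted p = 0.0714, 0.0508 and 0.0550), and 2 other members were lower. With the trends removed and without that replicate, 22 of the 51 were lower and 0 higher, with a median of -0.20. In that fit 989 of 11834 genes tested were lower and 938 higher. Tpp1 gave 2530.3, 2474 and 2593 in shRenilla and 1819, 1897 and 1842 in shBruce libraries, a modest but even difference.

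Of 16 very large ubiquitin ligases tested, 14 had log2 fold changes below 0, beside 5701 of all 11680 genes tested. Past the level, 3 of the 16 were lower (18.75%, beside 3.22% of all genes tested) and 0 higher. The lower ones included Birc6, the targeted gene itself, and Herc1 (-0.44 ± 0.11). The median transcript length of the 16 was 9760 bases. Their median log2 fold change of -0.36 became -0.11 with the trends removed, when Birc6 alone passed.

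Subunits of housekeeping complexes were among the higher genes. Of 72 nuclear genes of the respiratory complexes, 14 were higher (19.4%) and 0 lower, among them Ndufb7, Atp5e and Atp5j2 (0.62, 0.61 and 0.60). Ndufb7, a complex I subunit gene, gave 1247, 1532 and 1200 in shRenilla and 1853, 2168 and 2082 in shBruce libraries. The list median of 0.32 became 0.10 with the trends removed, and 0 genes then passed. Cytosolic ribosomal protein genes behaved alike, with 4 of 78 higher (Rps21, Rplp2, Rpl35 and Rps20) and a median of 0.26 that became 0.02. Proteasome subunits had 2 of 36 higher (Psmb6 and Psma7) and medians of 0.20 and 0.08. The median transcript lengths of these lists were 913, 910 and 1586 bases, and shRenilla replicate 2 lay nearest the shBruce libraries in each, with median deviations from the shRenilla mean of 0.14, 0.18 and 0.09.

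NRF2 targets and antioxidant genes had the largest share of higher members of these lists, 8 of 30 (26.7%), with 0 lower. They were Gstm1, Nqo1, Fth1, Ftl1, Pgd, Sod1, Hmox1 and Prdx6, which serve glutathione conjugation, quinone reduction, iron storage, NADPH supply, and the removal of superoxide, haem and peroxides. Fth1, the ferritin heavy chain gene, gave 10322, 11369 and 9791 in shRenilla and 15329, 16584 and 17840.0 in shBruce libraries (0.66 ± 0.10, adjusted p = 0.0283). Gstm1 rose by 0.82 ± 0.13 and Nqo1 by 0.74 ± 0.17. In all, 26 of the 30 had log2 fold changes above 0 and 4 below, beside 5979 above and 5701 below among all 11680 genes tested. In 21 of the 30 the highest library was shBruce replicate 3, beside 2781 of all 11680. Srxn1, which encodes sulfiredoxin, was separated between the lines but missed the level (0.46 ± 0.14, adjusted p = 0.0684). The classical targets Gclc, Gclm and Txnrd1 were among the 4 below 0 (-0.18, -0.03 and -0.09), and Nfe2l2, which encodes NRF2, stood at 0.04. These 5 genes were looked up by name. The list median was 0.32, and 0.23 with the trends removed, when 0 members passed. It was 0.28 without shBruce replicate 3, when 12 were higher, beside 958 of 11834 genes tested.

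Of 39 ATF4 and unfolded protein response genes, Nupr1, Ddit4 and Cebpb were higher (0.90, 0.90 and 0.43) and 0 lower. In 27 of the 39 the highest of the 6 libraries was shBruce replicate 3, which is the case for 2781 of all 11680 genes tested. Nupr1 gave 1104, 1086 and 915.5 in shRenilla and 1433, 1728 and 2642 in shBruce libraries. The list median was 0.23, and 0.15 without that replicate. With the trends removed it was 0.11, and 0 members passed. Of 23 glycolytic genes Aldoa and Pkm were higher (0.50 and 0.39). With the trends removed their values were 0.21 and 0.17 and 0 members passed, while the list median stayed at 0.18.

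Interferon-stimulated genes had a median log2 fold change of -0.60, with 45 of 46 below 0, but this rested on 1 library. Of all 11680 genes tested, 5701 were below 0. The median deviation of the interferon-stimulated genes from the shRenilla mean was -0.28 in shBruce replicate 1, -0.01 in replicate 2 and -2.82 in replicate 3. Replicate 3 was the lowest of the 6 libraries for 43 of the 46, beside 2659 of all 11680 genes tested. Isg15 gave 2129, 2219 and 1717 in shRenilla and 2075, 2741 and 360.1 in shBruce libraries, and Oasl2 gave 1709, 1489 and 1462 against 1291, 1695 and 65.4. Neither gene, both chosen after their values were seen, passed the test (adjusted p = 0.782 and 0.576). Ifit2 was the only member past the level. It gave 1665, 1313 and 1519 in shRenilla and 936, 868 and 925 in shBruce libraries, so that replicate 3 lay between the other shBruce libraries (-0.72 ± 0.10, adjusted p = 0.0283). Without replicate 3 the list median was -0.15, with 7 lower and 1 higher, beside 1393 lower and 958 higher of 11834 genes tested.

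The opposite pattern appeared in cholesterol and fatty acid synthesis, where the median was 0.35 but 0 of 34 genes passed. shBruce replicate 3 was the highest library for 28 of the 34, beside 2781 of all 11680 genes tested. The median deviation was 0.80 in that replicate, and -0.03 and 0.14 in replicates 1 and 2. Insig1, a sterol sensor gene named after its values were seen, gave 698, 633 and 657 in shRenilla and 581, 642 and 1354 in shBruce libraries. Without replicate 3 the list median was 0.08.

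**Figure D4:**
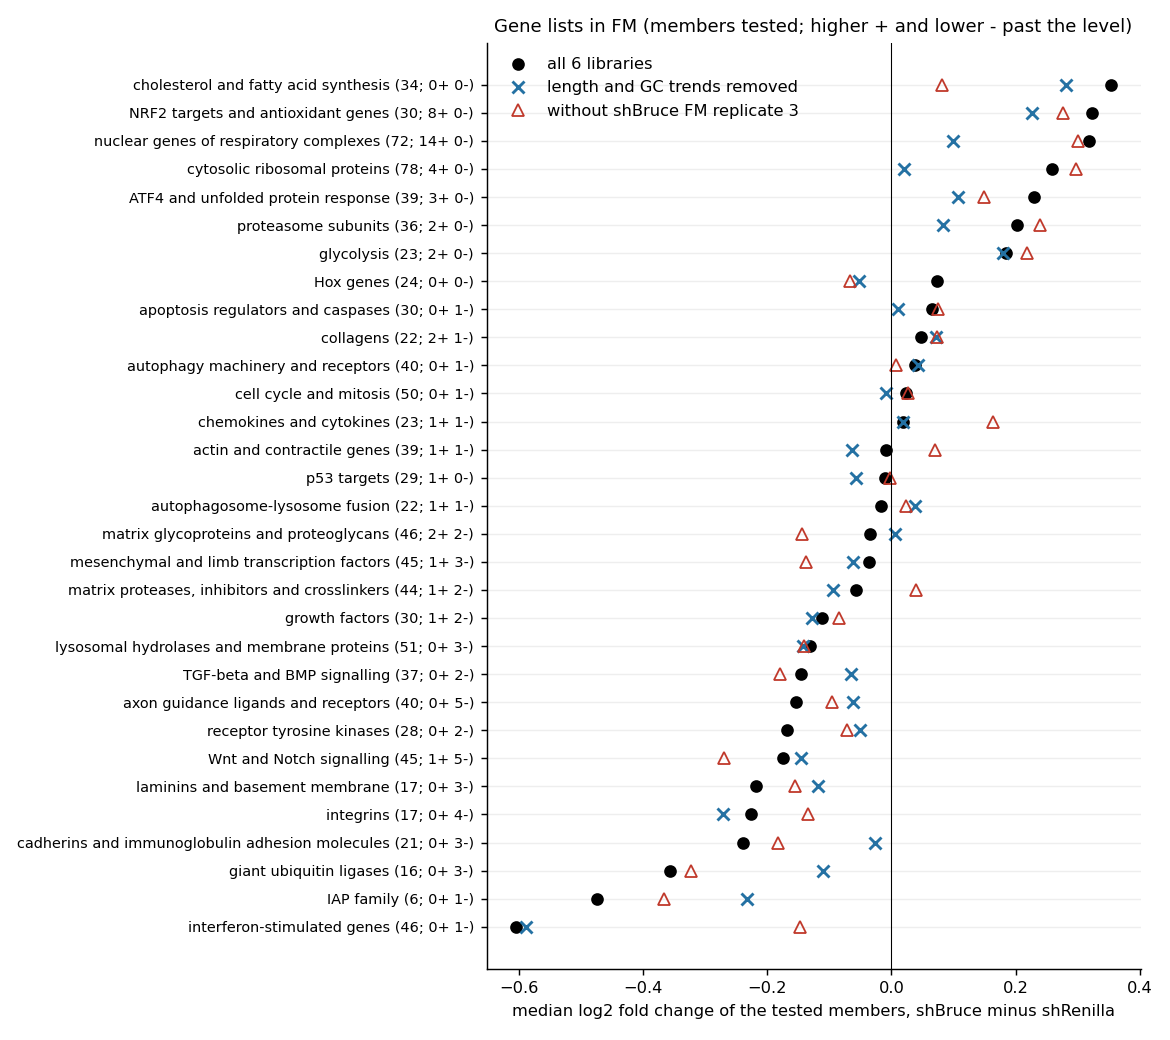
Median log2 fold change of the tested members of each gene list (x axis, shBruce minus shRenilla) with all 6 libraries (black), with length and GC trends removed (blue crosses) and without shBruce FM replicate 3 (open triangles). Labels give the members tested and how many passed upward (+) and downward (-). The interferon-stimulated genes move from -0.60 to -0.15 without replicate 3, and the ribosomal proteins from 0.26 to 0.02 with the trends removed.

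The remaining lists held few calls. Among 50 cell cycle genes only Cenpf, a kinetochore protein gene with a long transcript, was lower (-0.42 ± 0.10), and its value was -0.05 with the trends removed. Among 29 p53 targets only Ak1 was higher (0.56 ± 0.12). Among 39 actin and contractile genes Csrp2 was higher (0.74 ± 0.17) and Fhl1 lower (-0.41 ± 0.09). Of 24 Hox genes 0 passed. Of 45 mesenchymal and limb transcription factor genes Prrx2 was higher (0.58) and Tbx20, Zeb2 and Runx1 were lower (-0.73, -0.68 and -0.56). With the trends removed these values were 0.25, -0.37, -0.27 and -0.34. In that fit 0 genes passed in each list of this paragraph. Tbx20 gave 1664, 1342 and 1656.5 in shRenilla and 1052, 884 and 865 in shBruce libraries (adjusted p = 0.0324).

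Sites that could pair with the seed of the guide were counted in the 3′ UTRs. The heptamer GTTTAAA occurred in the 3′ UTR of 40.8% of the lower genes with an annotated 3′ UTR, of 4.63% of the higher genes and of 18.6% of all genes tested. The median 3′ UTR was 2470.0 bases long among the lower, 392.5 among the higher and 1185 among all genes, and the heptamer occurred 1.40, 0.663 and 1.11 times per 10 kb. Within 5 equal bins of 3′ UTR length, genes with the heptamer had the lower median log2 fold change in each, for example -0.24 against -0.16 in the longest bin. With the trends removed, the median was still the lower one with the heptamer in each of the 5 bins, by less than before, from -0.06 against -0.02 in the middle bin to 0.02 against 0.02 in the longest. Among the 23 lower genes that also passed with the trends removed, 5 (21.7%) held it, and among the 12 higher ones 3 (25.0%) did. A match of letters does not show that the guide acts there.

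The same lines were sequenced after starvation, and these 6 libraries are shared with neither side of the FM comparison. Of the 597 genes, 596 were tested in Starv and 589 had the same direction there, beside 79.9% of all genes tested in both media. Replicates did not overlap in the same direction for 359 of them (background 32.7%), and 448 had the same direction with an unadjusted p under 0.05 (background 30.1%). In Starv alone, 0 of 11969 genes (0.0%) passed edgeR's adjusted level, although 3662 had an unadjusted p under 0.05 and the smallest adjusted p was 0.117. One fit of all 12 libraries placed 421 of the 597 past the level in Starv (background 23.9%), and leaving out shBruce Starv replicate 3 placed 494 there (background 38.6%). Leaving out any other Starv library, or using limma-voom, placed 0 there. As both media used the same cells, this speaks of the lines and not of the knockdown by itself. The median log2 fold change of the 221 higher genes was 0.50 in FM and 0.68 in Starv, and that of the 376 lower genes -0.63 and -0.79. The length trend was also wider in Starv, with bin medians from 0.45 in the shortest to -0.41 in the longest transcripts.

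Birc6 gave 4591, 4524 and 2629.5 in shRenilla and 1121, 681 and 1155 in shBruce libraries in Starv, on a scale set within those 6 libraries. The lines were separated in Starv too, with a log2 fold change of -1.99 ± 0.28. Lama4 (-1.08) and Cxcl12 (-0.81) were also lower in each shBruce library than in any control. Postn was not: it gave 143, 166 and 141.0 in shRenilla and 21.2, 39.3 and 269 in shBruce libraries, of which replicate 3 was the highest of all (-0.38 ± 0.72). The difference between the media was tested for each gene as an interaction, and 0 of the 596 passed with edgeR (0.0% of all genes tested), 17 having an unadjusted p under 0.05 and the smallest adjusted p being 0.806.

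Of the 597 genes, 7 had opposite directions in the media. These were 4933431E20Rik, F930015N05Rik, Fst, Inca1, Mef2c, Ptchd4 and Zcwpw1, named here after their values were seen. Fst had a log2 fold change of -0.53 in FM and 0.40 in Starv, where shBruce replicate 3 (271) lay above the other 5 libraries (118 to 144). 4933431E20Rik was the only one without overlap in either medium, at 0.87 in FM and -0.49 in Starv.

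**Figure D5:**
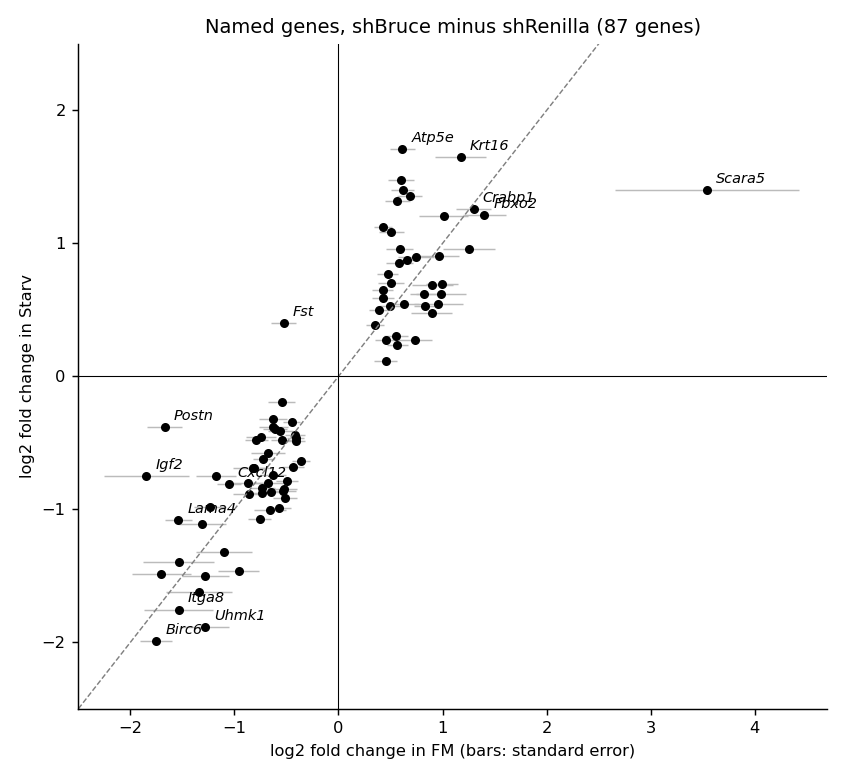
Log2 fold change (shBruce minus shRenilla) in FM on the x axis, with its standard error, against that in Starv on the y axis for the 87 named genes that were chosen by rule from the FM comparison. The dashed line marks equal values. Birc6 lies at -1.75 and -1.99, Postn at -1.67 and -0.38, and Fst alone lies above 0 on the y axis with a value below 0 on the x axis.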

How the data were processed

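RNA-Seq of poly(A)-enriched RNA was analysed for the 6 FM libraries, with the 6 Starv libraries used for lookup. The authors removed reads aligning to rRNA, mapped 50-base single-end reads to mm10 with STAR 2.4.0d and deposited raw read counts per gene symbol from HTSeq 0.5.4p3, without normalization. The gene annotation and strand setting of the counting were not given in the sources used here. The table held 24062 symbols, of which 27 had turned into dates and 2 were repeated, and 0 of its columns were left unused. Samples were grouped by their titles. The test was edgeR's (version 4.0.16, R 4.3.3; TMM, filterByExpr, quasi-likelihood test, two-sided, Benjamini-Hochberg adjustment over the genes tested, level 0.05). Normalized counts are counts scaled by effective library size, with the geometric mean over the 6 libraries as reference. Intervals of the fit are at 95%, and with 3 replicates per line the errors reflect library spread, not only counting error.

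The alternatives were DESeq2 1.42.0 (Wald test, or its size factors in edgeR), upper-quartile normalization, limma-voom (limma 3.58.1) with and without sample quality weights, other filters on low counts, a joint fit of all 12 libraries, a replicate block, removal of the trends with length and GC content that each library showed (splines with 4 degrees of freedom), and each library left out in turn. The trend removal without shBruce FM replicate 3 was added after seeing the data. Fits were tested on simulated data. Gene positions, lengths and 3′ UTRs were read from GENCODE M21 (GRCm38). In it 22724 symbols were found as written, 915 under older symbols and 423 not at all. The guide came from the study's shRNA library table and the target from the Birc6 transcript.

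Genes were named by a rule: Birc6, Lama4 and Cxcl12, the 10 higher and 10 lower genes with the largest change (mean normalized count of at least 50 in the higher line, no overlap of replicates), and up to 3 higher and 3 lower genes of each list. The other genes named are marked in the text or belong to a count. Some genes that the rule takes are not reported here. The lists, from general knowledge, and the genes given by name were chosen with earlier results of these data known, so lists are described by counts and medians without a test. Tables and plots were made in Python 3.11.15 (pandas 2.3.3, numpy 2.4.6, matplotlib 3.10.9).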

Additional observations from a re-analysis of the deposited data

How the results depend on the processing

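The count of genes that differed in FM moved with most choices. From 597 it went to 1647 with DESeq2's Wald test, 3858 with limma-voom and sample quality weights, 1229 without a filter on low counts, 55 with limma-voom, 44 with the length and GC trends removed, and 1927 with the trends removed and without shBruce FM replicate 3. Of the 1927 genes, 387 were among the 597. The joint fit of all 12 libraries called 0 genes with edgeR (1750 at an unadjusted p under 0.05), Birc6 included (-1.75, adjusted p = 0.0627). With a fold change of at least 2 the count was 50, and with 1 library left out it lay between 2 and 2351. Size factors from DESeq2, upper-quartile normalization and a minimum of 10 counts in every library gave 595, 648 and 755. With a replicate block it was 1448, and 1 (Birc6) with the trends removed and the replicate block. Same-numbered libraries of the lines deviated together only weakly (r = 0.095, 0.192 and 0.078). Among the libraries of the other line, the deviations of each library correlated best with those of its own number, which is a hint from the data and not from the design. Of 1534 pairs of a named gene and a setting, 871 kept direction and call, 662 kept only the direction and 1 turned, Cenpf, to 0.0144 with the trends removed and without shBruce FM replicate 3. Of the 597 genes, the number past the level in Starv went from 0 to 421 in the joint fit, and to between 0 and 494 with 1 Starv library left out, the highest without shBruce Starv replicate 3.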
